A study of Homo sapiens with 6 samples.

Results

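The genes described here encode the nuclear part of the respiratory chain and the ATP synthase, measured by RNA sequencing in libraries labelled HT1197, a line grown from a human bladder carcinoma. Members were the protein-coding rows whose symbol names an NDUFA, NDUFB, NDUFC, NDUFS or NDUFV subunit, an SDH or UQCR subunit, CYC1, CYCS, a COX4 to COX8A subunit or an ATP5 gene, with assembly factors and pseudogenes left out. They numbered 84 of 22718 rows: 38 in complex I, 4 in complex II, 10 in complex III, 1 for cytochrome c, 12 in complex IV and 19 in complex V, the ATP synthase. Vehicle cells spent 48 hours in 1% DMSO (their condition label reads untreated), and treated cells spent the same time in panobinostat, a hydroxamate that inhibits histone deacetylases, at 2 times the half-maximal inhibitory concentration of the line. Each arm held 3 libraries, A to C. All came from 1 line in dishes seeded in triplicate. Which dish gave which library is not labelled, and the p-values then reflect only how these samples vary, possibly for technical reasons.

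Complex I takes electrons from NADH, and complex II takes them from succinate. Both pass them to ubiquinone, from which complex III hands them to cytochrome c and complex IV to oxygen. Complexes I, III and IV pump protons across the inner mitochondrial membrane, and the ATP synthase lets them back to make ATP. Complex II is encoded in the nucleus alone, whereas the others combine nuclear subunits with subunits made in the mitochondrion. The factors NRF1 and GABP are known activators of many of these nuclear genes, and the coactivator PGC-1alpha (PPARGC1A) works with them and with ESRRA. The 13 mitochondrially encoded subunits have no row here and were not analysed here.

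Libraries held between 13417898 and 18186087 counts, and the 6 libraries were fitted as 2 groups of 3. The label of the line was set against marker genes. Of 17 urothelial markers, 10 had a row and only GATA3 reached 10 FPKM with vehicle (fragments per kilobase of gene, scaled to the library), while FOXA1, TP63 and UPK1B were at 0 in every vehicle library. All 12 sympathetic neuroblast markers had a row and 11 of them stood at 10 FPKM or more with vehicle, with MYCN at 832 FPKM. The exception was TH, at 0.087 FPKM. The libraries are therefore called here by their label and not by a tissue. The neuroblast markers summed to 1856 to 2119 FPKM with vehicle and 1529 to 1607 FPKM with panobinostat. Of the 11 tested, 9 fell, beside 31.5% of all genes tested. The part of these markers in the results below was not tested. Other marker sums were low: leukocyte genes 0.57 to 1.09 FPKM with vehicle and 0.193 to 0.525 FPKM with panobinostat, endothelial genes 0.105 to 0.154 and 0.554 to 0.564, muscle genes 4.12 to 5.13 and 6.69 to 7.30, and fibroblast genes 29.5 to 32.2 and 30.6 to 33.5, mostly PDGFRA. Single markers changed within these sums: the fibroblast genes COL1A1 and DCN rose (by 3.76 and 3.79 on the log2 scale, COL1A1 from a mean of 2.58 to 34.2 CPM, library-scaled counts) while PDGFRA fell by 0.21, and the muscle gene CNN1 rose by 2.30. Rises and falls among those tested numbered 2 and 1 for fibroblast, 2 and 1 for muscle, 2 and 0 for endothelial and 1 and 1 for leukocyte genes. Beside these counts, 33.7% of all genes tested rose and 31.5% fell. The part of these markers in the results was not tested either.

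A single library stood apart for these genes. Panobinostat library A had the lowest value of its arm in 65 of the 82 members tested (79.3%), against 40.0% of all genes tested. Vehicle library A was the lowest of its arm in 34 of the 82. The counts by complex below are therefore also given without panobinostat library A.

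Of the 84 members, 82 passed the filter on low counts and were tested with edgeR's quasi-likelihood test, with Benjamini-Hochberg adjustment over all 16084 genes tested. At an adjusted p of 0.05 or less, 27 members fell, 14 rose and 41 did not pass. That is 41 of 82 members called, beside 65.2% of all genes tested; 31.5% of all genes fell and 33.7% rose. No tested member changed 2-fold, whereas 22.1% of all genes were called with a change of at least 2-fold. The log2 fold changes (panobinostat minus vehicle) ran from -0.93 for NDUFA9 to 0.78 for COX6A1, with a median of -0.06 over members and 0.01 over all genes tested. In 31 members every panobinostat library lay below every vehicle library, and in 13 every one lay above, where 33.4% and 35.5% of all genes did so. Without panobinostat library A, 28 members fell and 20 rose. Shares of all genes are not given for fits that leave out a library. The counts from such fits, here and below, are therefore not set against all genes. A change in the mixture of cells and a change in the RNA of each cell cannot be told apart in bulk libraries.

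The balance of falls and rises depended on the scaling of the counts. With upper quartile scaling 21 members fell and 25 rose (all genes: 23.8% and 40.8%), and with library size alone 23 fell and 22 rose (all genes: 25.2% and 39.4%). The share of called members that rose was thus 34.1% with TMM, the scaling used below, 54.3% with upper quartile scaling and 48.9% with library size alone. These scalings moved the median of all genes by 0.14 and 0.11. The member median moved to 0.08 and 0.05, below the median of all genes (0.15 and 0.13), as with TMM. Calls of 33 members, 21 that fell and 12 that rose, held under each left-out library and each scaling.

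Over all genes tested, 31.5% fell and 33.7% rose. In complex I 18 of 38 members fell and 4 rose, and in complex III 5 of 10 fell and 1 rose. In complex IV none of 11 tested fell and 4 rose, and cytochrome c rose. The ATP synthase split into 3 falls and 4 rises among 18 tested, and complex II had 1 fall among 4. Without panobinostat library A, complex I had 18 falls and 8 rises, complex II 1 and 0, complex III 6 and 2, complex IV 0 and 5, and complex V 3 and 4. The median log2 change was -0.19 in complex I, -0.18 in complex III, -0.08 in complex II, -0.05 in complex V and 0.10 in complex IV. With upper quartile scaling those of complexes I and III stayed below 0 (-0.05 and -0.04), while those of complexes II and V were above it (0.05 and 0.09). With that scaling (all genes: 23.8% fell and 40.8% rose) complex II had 1 fall and 1 rise, complex III 4 falls and 2 rises, and complex V 2 falls and 5 rises, and with library size alone (25.2% and 39.4%) complex II had 1 and 1, complex III 4 and 1, and complex V 2 and 4. The differences between complexes were not tested.

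**Figure D1:**
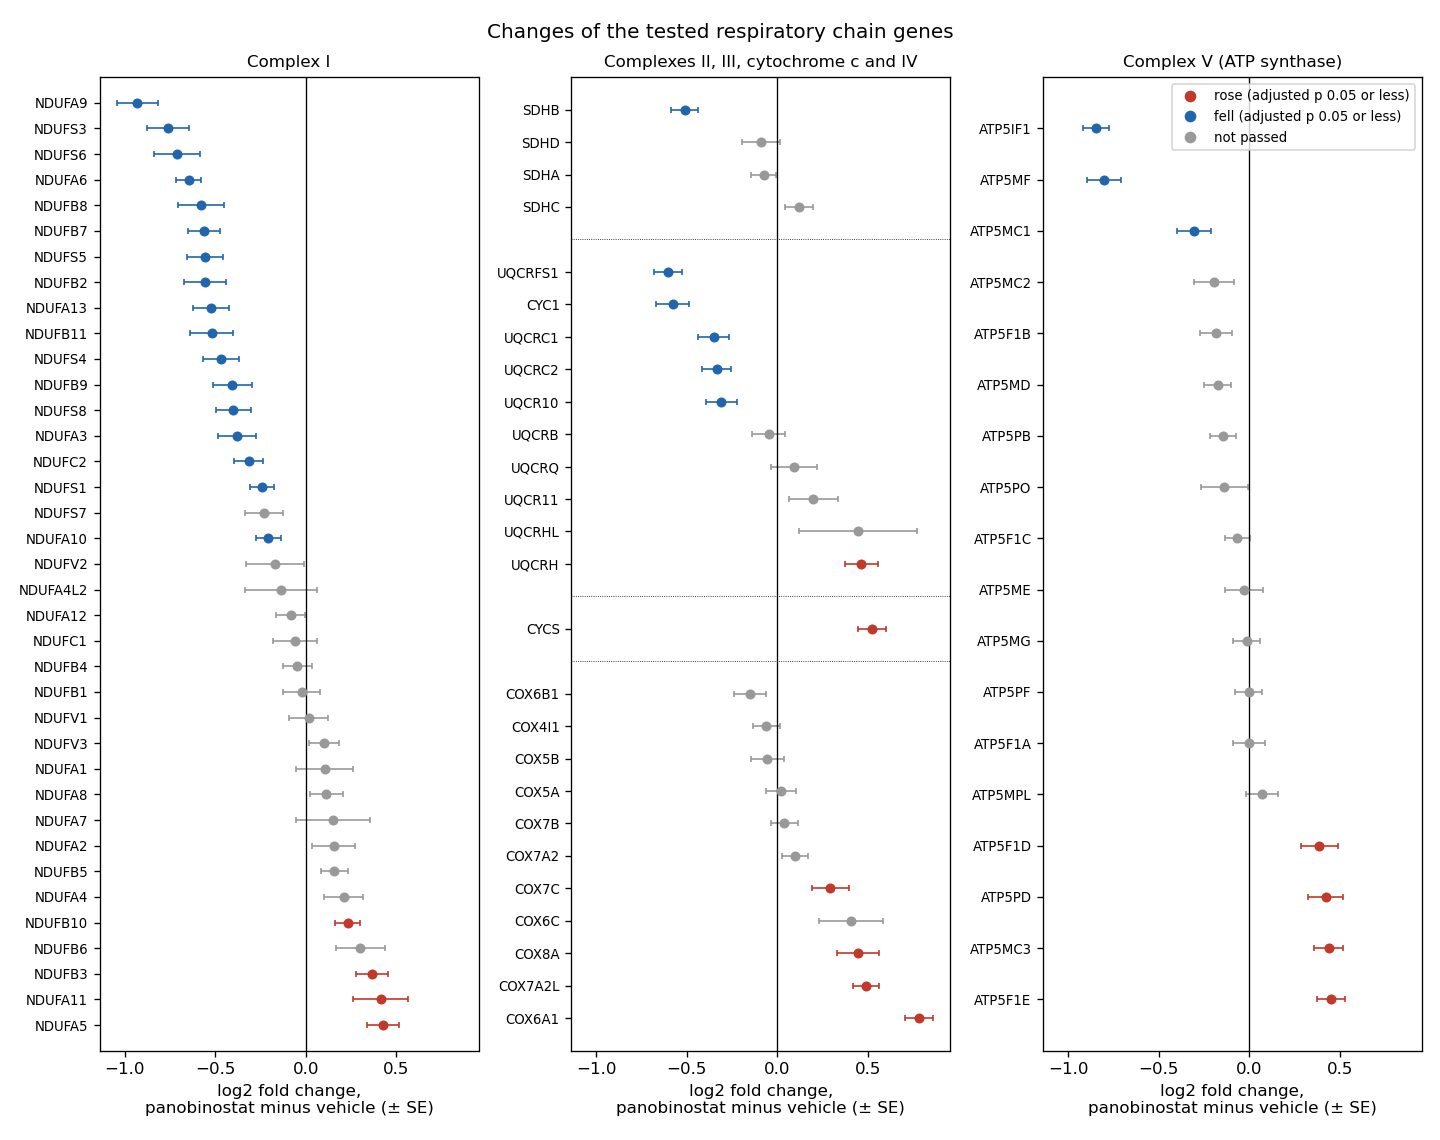
Log2 fold change of the tested members other than 1 of complex I (points, panobinostat minus vehicle, TMM scaling) with its SE (bars), by complex, with dotted lines between groups. Blue points fell, red points rose at an adjusted p of 0.05 or less, and grey points did not pass; blue points fill the upper part of complex I, and complex IV has none.

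The plot of change by gene shows that members of 1 complex did not move as a block. In each complex with more than 1 member tested, some members did not pass, and in complexes I, III and V some fell while others rose. Means over the tested members of a complex were set out by library. The mean log2 level of complex I, relative to the vehicle mean, was -0.05, -0.01 and 0.06 in vehicle libraries A, B and C and -0.36, -0.15 and -0.08 in panobinostat libraries A, B and C, so the arms do not overlap. For complex IV the means were 0.00, -0.03 and 0.03 with vehicle and 0.02, 0.28 and 0.31 with panobinostat, where panobinostat library A lay within the vehicle range. For complex V they were 0.01, -0.05 and 0.04 and -0.19, -0.03 and 0.02, and the arms overlap. All of these means are TMM-scaled. In complex I, vehicle library A (-0.05) lay close to panobinostat library C (-0.08). The other scalings moved the median of all genes by more than that gap (0.14 and 0.11). With library size alone in place of TMM, the arms of complex I overlap and those of complex IV are apart. Means by library were not set out with upper quartile scaling, where overlap can differ again.

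**Figure D2:**
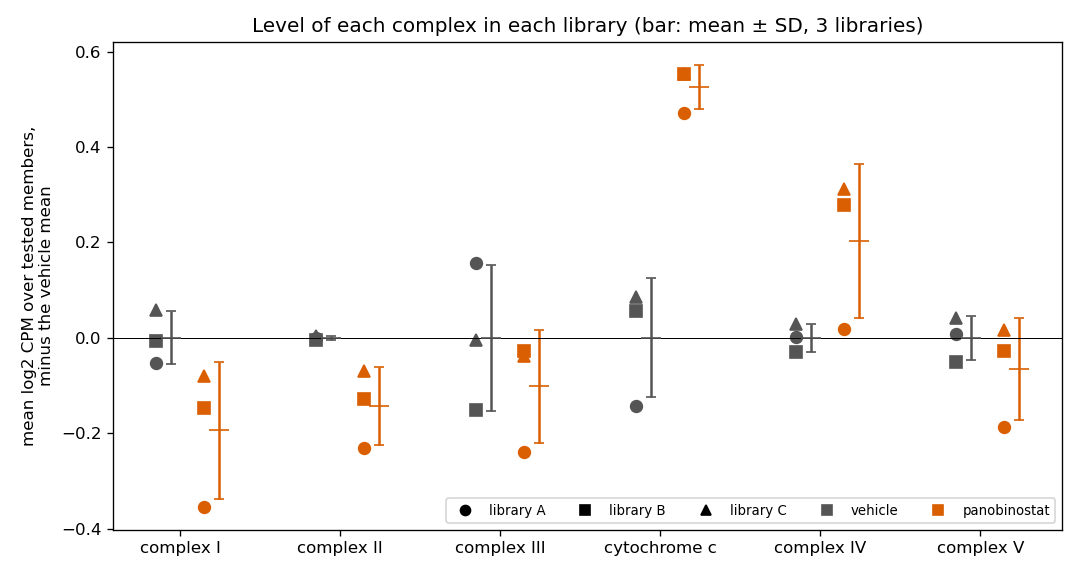
Mean log2 CPM over the tested members of each complex in each library, minus the mean of the vehicle libraries (marker shape: library; colour: arm; horizontal line and bar: mean and SD of 3 libraries). Panobinostat library A is the lowest of its arm in each group, and the spread of complex III includes UQCRHL, a gene near 1 CPM.

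Upstream sequence is shown for 4 members on which the results turn, picked after their values were seen: COX6A1, the largest rise, CYCS, the carrier, SDHB, the 1 fall in complex II, and ATP5IF1, the largest fall in complex V. Each stretch is the part of the RefSeq promoter (GRCh38.p14) that starts 250 bases before the gene's start and runs to the first annotated exon base, 5′ to 3′ on the gene's strand. Capitals mark matches to the letters CCGGAAG (ETS, the family of GABP), GCGCATG (NRF1), AGATGGC (YY1) and GGGCGG (SP) on either strand.
COX6A1 (chr12:120437863-120438089, + strand): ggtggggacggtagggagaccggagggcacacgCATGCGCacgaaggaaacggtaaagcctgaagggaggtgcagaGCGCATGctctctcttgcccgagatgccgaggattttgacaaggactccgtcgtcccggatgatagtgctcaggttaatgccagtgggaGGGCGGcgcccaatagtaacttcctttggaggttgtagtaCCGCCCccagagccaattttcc
CYCS (chr7:25125362-25125510, - strand): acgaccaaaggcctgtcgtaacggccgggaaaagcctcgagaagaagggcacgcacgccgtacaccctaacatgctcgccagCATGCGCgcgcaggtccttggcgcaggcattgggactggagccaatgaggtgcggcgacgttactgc
SDHB (chr1:17054171-17054282, - strand): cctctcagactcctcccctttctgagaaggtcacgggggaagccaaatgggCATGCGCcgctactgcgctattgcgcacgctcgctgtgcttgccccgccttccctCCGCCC
ATP5IF1 (chr1:28235874-28236108, + strand): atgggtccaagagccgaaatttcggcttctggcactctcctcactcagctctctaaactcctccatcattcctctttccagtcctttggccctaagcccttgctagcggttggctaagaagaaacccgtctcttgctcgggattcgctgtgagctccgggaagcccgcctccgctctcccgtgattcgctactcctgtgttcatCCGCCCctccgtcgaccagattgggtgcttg
The COX6A1 stretch holds the NRF1 letters at positions -217 and -174 from the RefSeq start and the SP letters at -85 and -45. CYCS has 1 NRF1 match, at -168. SDHB has an NRF1 match at -199 and an SP match at -144, and ATP5IF1 has an SP match at -46. In the rest of the RefSeq promoter, which is not shown, SDHB also holds the ETS and YY1 letters and COX6A1 the ETS letters. A match is a description of letters and not a bound site.

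RefSeq promoters of 300 bases (250 before and 50 after the start) were matched for 66 members. The NRF1 letters stood in 22.7% of them and in 4.43% of all 35116 promoters, the ETS letters in 30.3% and 10.3%, the YY1 letters in 18.2% and 5.41%, and the SP letters in 62.1% and 45.0%. Members were protein-coding genes with a single promoter each, whereas no such limit, and none on expression, was set on all promoters. The sets may thus differ in kind. Members that fell and members that rose both held these letters. Of 21 matched members that fell, 4 had the NRF1 letters and 5 the ETS letters, and of 12 that rose, 2 and 4 did. The YY1 letters were in 6 of the 21 that fell, in 0 of the 12 that rose and in 6 of the 33 that did not pass. These shares are descriptions, and no difference between them was tested.

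Values per library are given below as CPM, library-scaled counts with TMM factors, in the order A, B and C for each arm, and changes are log2 fold changes ± SE. Statements below on whether arms overlap refer to these TMM-scaled values unless FPKM is named. The core subunits of complex I hold the flavin and the iron-sulphur clusters that carry electrons, and the accessory ones surround and stabilise them. Of the 4 rises in complex I, 2 were NDUFA and 2 were NDUFB genes. Panobinostat library A was the lowest of its arm in 28 of the 38 members, and without it 18 fell and 8 rose. With upper quartile scaling 14 fell and 10 rose (all genes: 23.8% and 40.8%), and with library size alone 16 fell and 9 rose (all genes: 25.2% and 39.4%).

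The largest fall was that of NDUFA9, an accessory subunit where the peripheral and membrane arms of the complex meet (ENSG00000139180, chr12:4649095-4694317, + strand, GRCh38), with 45.9, 44.5 and 47.1 CPM with vehicle and 19.4, 28.3 and 24.2 CPM with panobinostat. It fell by 0.93 ± 0.11 (adjusted p = 3.98e-06), and the arms do not overlap. NDUFS3, a core subunit of the module that reduces ubiquinone, stood at 106, 97.1 and 108 CPM with vehicle and 47.4, 63.5 and 72.5 CPM with panobinostat and fell by 0.76 ± 0.12 (adjusted p = 4.47e-05). Panobinostat library A was the lowest for both genes, and without it they fell by 0.81 and 0.61. NDUFS3 shares 19.6% of its exon bases with PTPMT1 and NDUFA9 shares 10.6% with unnamed loci, all on the same strand, so their counts may hold reads of a neighbour.

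NDUFS6, a zinc-binding accessory subunit, ran at 60.4, 75.8 and 84 CPM with vehicle and 38.2, 42.6 and 53.5 CPM with panobinostat. It fell by 0.71 ± 0.13 (adjusted p = 0.000175). NDUFA6, an accessory subunit of the LYR family, was the steadiest of these within an arm, with 122, 121 and 121 CPM with vehicle and 76.9, 75 and 80.8 CPM with panobinostat. It fell by 0.65 ± 0.07 (adjusted p = 1.11e-06), and every panobinostat library lay well below the vehicle range. The LYR subunits bind the acyl carrier protein NDUFAB1, which is itself part of the complex but lies outside the symbol rule. NDUFAB1 fell by 0.42 ± 0.12 (adjusted p = 0.00585), with 76.8, 74.2 and 82.3 CPM with vehicle and 44.1, 63.9 and 65.7 CPM with panobinostat.

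Smaller falls were also found in accessory and core subunits. Between NDUFA6 and NDUFS1 in size lay NDUFB8, NDUFB7, NDUFS5, NDUFB2, NDUFA13, NDUFB11, NDUFS4, NDUFB9, NDUFS8, NDUFA3 and NDUFC2, with log2 changes from -0.58 to -0.32. In each the panobinostat libraries all lay below the vehicle libraries with TMM scaling. For NDUFB9 the gap was narrow, with 155.5 CPM in vehicle library A and 154.8 CPM in panobinostat library C. In FPKM its arms overlap (57.4 and 60.4 FPKM in those libraries). NDUFS8 is a core subunit that holds iron-sulphur clusters. With limma on FPKM 13 or 14 complex I members fell, depending on the setting. The calls of NDUFB9 (from -0.30 to -0.29, adjusted p = 0.0769 to 0.104) and NDUFS8 (from -0.28 to -0.27, adjusted p = 0.066 to 0.0878) were lost in all 3 settings, and those of NDUFB11 and NDUFA3 without a filter (-0.42 and -0.23, adjusted p = 0.0608 and 0.0636). Of 2 genes described below, NDUFA10 also lost its call in all 3 limma settings (-0.09, adjusted p = 0.182 to 0.194). NDUFS1 lost it in both settings with a filter (-0.12 and -0.13, adjusted p = 0.0541 and 0.0531). NDUFB8 shares 33.8% and NDUFA13 21.0% of their exon bases with a same-strand neighbour.

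NDUFS1, the largest core subunit and a holder of iron-sulphur clusters, had 319.6, 329 and 330.1 CPM with vehicle and 277, 275 and 276 CPM with panobinostat. It fell by 0.24 ± 0.07 (adjusted p = 0.00509), with tight panobinostat values all below the vehicle ones, but the call was lost with library size alone and with upper quartile scaling (-0.13 and -0.10, adjusted p = 0.0944 and 0.186). NDUFV1, the core subunit that oxidises NADH with its flavin, stood at 139, 148 and 150.2 CPM with vehicle and 116, 162 and 164 CPM with panobinostat. Its arms overlap, with panobinostat library A lowest and the other two above the vehicle values, and it did not pass (0.02 ± 0.11, adjusted p = 0.898). NDUFS7, which carries the iron-sulphur cluster next to ubiquinone, had 105, 92 and 108 CPM with vehicle and 70.7, 93.7 and 95.4 CPM with panobinostat. It did not pass (-0.23 ± 0.10, adjusted p = 0.0669), but did without vehicle library B or panobinostat library C (both -0.30, adjusted p = 0.0364 and 0.0324).

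Smaller falls also turned on settings. NDUFA10, an accessory subunit with a nucleoside kinase fold, had 100.0, 96.8 and 96.1 CPM with vehicle and 83.7, 85.6 and 84.6 CPM with panobinostat. It fell by 0.21 ± 0.07 (adjusted p = 0.015), and the call was lost without panobinostat library C (-0.20, adjusted p = 0.052), with library size alone (-0.09, adjusted p = 0.243) and with upper quartile scaling (-0.07, adjusted p = 0.401). NDUFA3, a small membrane-arm subunit, had 21.6, 18.8 and 19.9 CPM with vehicle and 17.1, 14.3 and 15.1 CPM with panobinostat and fell by 0.38 ± 0.11 (adjusted p = 0.00614). NDUFC2, another membrane-arm subunit, had 73.6, 81.6 and 72.9 CPM with vehicle and 57.5, 63.9 and 61.8 CPM with panobinostat and fell by 0.32 ± 0.08 (adjusted p = 0.00248). The arms of all 3 are apart, and NDUFA3 and NDUFC2 did not pass with upper quartile scaling (-0.24 and -0.18, adjusted p = 0.0624 and 0.0608). NDUFC2 shares 16.3% of its exon bases with the readthrough locus NDUFC2-KCTD14.

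The 4 rises in complex I were in accessory subunits, which make up 31 of its 38 members, while 7 are core. NDUFA5, of the module that reduces ubiquinone, had 87.1, 116 and 101 CPM with vehicle and 139.6, 132 and 137 CPM with panobinostat and rose by 0.43 ± 0.09 (adjusted p = 0.000757). NDUFB3, of the membrane arm, had 35.1, 36.2 and 38.4 CPM with vehicle and 42.5, 50.9 and 48.1 CPM with panobinostat and rose by 0.37 ± 0.09 (adjusted p = 0.00192). NDUFB10, another membrane-arm subunit, had 94.1, 99.3 and 101 CPM with vehicle and 114, 119 and 113 CPM with panobinostat and rose by 0.23 ± 0.07 (adjusted p = 0.00793). The arms of these 3 genes do not overlap. NDUFA11, also of the membrane arm, differed: it had 39.4, 48.7 and 48.8 CPM with vehicle and 42.5, 68.5 and 71.1 CPM with panobinostat, so panobinostat library A lay within the vehicle range. It rose by 0.41 ± 0.15 (adjusted p = 0.0254), but the call was lost when vehicle library A, panobinostat library B or panobinostat library C was left out (0.31, 0.32 and 0.29, adjusted p = 0.0952, 0.107 and 0.121). With DESeq2 the change was 0.42 and did not pass (adjusted p = 0.138). Nor did it pass with limma on FPKM in any of 3 settings (0.45 to 0.49, adjusted p = 0.0627 to 0.091).

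Among complex I members that did not pass, 4 more had calls that turned on panobinostat library A. NDUFB6, of the membrane arm, had 44.9, 50.5 and 56.9 CPM with vehicle and 46.9, 67.2 and 73.4 CPM with panobinostat, and NDUFB5, of the same arm, had 72.1, 71.5 and 69.1 CPM with vehicle and 74.5, 81 and 81.9 CPM with panobinostat. Their changes were 0.30 ± 0.13 (adjusted p = 0.0613) and 0.16 ± 0.07 (adjusted p = 0.0678). Without panobinostat library A they were 0.47 and 0.20 (adjusted p = 0.000532 and 0.0229), and with upper quartile scaling 0.44 and 0.30 (adjusted p = 0.00977 and 0.00227). Both also passed with library size alone (0.41 and 0.27, adjusted p = 0.0133 and 0.00425). NDUFB6 passed without vehicle library C too (0.38, adjusted p = 0.0406). NDUFA2, a subunit with a thioredoxin-like fold, had 36.9, 34.7 and 39 CPM with vehicle and 32.5, 47.9 and 42.3 CPM with panobinostat. Its change of 0.15 ± 0.12 (adjusted p = 0.259) became 0.29 without panobinostat library A (adjusted p = 0.00977) and 0.29 with upper quartile scaling (adjusted p = 0.0407).

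NDUFA4 is counted in complex I by its symbol, although its protein has since been assigned to complex IV. It had 172, 129 and 146 CPM with vehicle and 148, 185 and 185 CPM with panobinostat, and its change of 0.21 ± 0.11 (adjusted p = 0.098) passed without vehicle library A (0.32, adjusted p = 0.0113), without panobinostat library A (0.31, adjusted p = 0.0111) and with upper quartile scaling (0.35, adjusted p = 0.0106). Its paralog NDUFA4L2, known as a target of hypoxia signalling, was scarce at 4.33, 3.28 and 3.93 CPM with vehicle and 4.28, 3.19 and 3.05 CPM with panobinostat and did not pass (-0.14 ± 0.20, adjusted p = 0.556). NDUFA4 passed with library size alone too (0.32, adjusted p = 0.0179), and the arms of both paralogs overlap. NDUFA8, a twin-cysteine subunit on the intermembrane side, had 42.8, 45.2 and 51.5 CPM with vehicle and 48.3, 47.9 and 54.6 CPM with panobinostat. NDUFV3, a small subunit beside the flavin site, had 79.5, 68.5 and 65.3 CPM with vehicle and 76.9, 72.6 and 78.9 CPM with panobinostat. Neither passed (0.11 ± 0.09, adjusted p = 0.287, and 0.10 ± 0.08, adjusted p = 0.308), and both passed with upper quartile scaling (0.25 and 0.24, adjusted p = 0.0231 and 0.0217) and with library size alone (0.23 and 0.21, adjusted p = 0.0369 and 0.042). The 7 other members, NDUFV2, NDUFA12, NDUFC1, NDUFB4, NDUFB1, NDUFA1 and NDUFA7, had changes from -0.17 to 0.15, overlapping arms and the same call under each scaling and left-out library.

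Complex II has a flavoprotein (SDHA), an iron-sulphur subunit (SDHB) and the membrane anchors SDHC and SDHD. SDHB alone passed (ENSG00000117118, chr1:17018722-17054170, - strand, GRCh38). It had 110.0, 112 and 109.8 CPM with vehicle and 71.8, 78.1 and 82.8 CPM with panobinostat, with the 3 vehicle libraries close together and every panobinostat library below them, and fell by 0.51 ± 0.07 (adjusted p = 2.35e-05). SDHA, which binds its flavin and succinate, had 97.7, 102 and 102 CPM with vehicle and 90.6, 94.8 and 99.8 CPM with panobinostat. Its arms overlap and it did not pass (-0.08 ± 0.07, adjusted p = 0.352). SDHC had 44.6, 42 and 42.2 CPM with vehicle and 44.2, 46.7 and 48.8 CPM with panobinostat, a change of 0.12 ± 0.08 (adjusted p = 0.198) that passed with library size alone and with upper quartile scaling (0.23 and 0.26, adjusted p = 0.0188 and 0.0101). SDHD did not pass (-0.09 ± 0.10, adjusted p = 0.455).

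In complex III the genes of the electron-carrying subunits fell most. UQCRFS1, the Rieske iron-sulphur protein (ENSG00000169021, chr19:29205321-29213541, - strand, GRCh38), had 66.4, 61.5 and 63.2 CPM with vehicle and 41.7, 41.9 and 41.9 CPM with panobinostat, with the panobinostat libraries almost equal. It fell by 0.60 ± 0.07 (adjusted p = 5.36e-06). CYC1, the cytochrome c1 subunit, had 188, 153 and 156 CPM with vehicle and 98.4, 113 and 120.2 CPM with panobinostat and fell by 0.58 ± 0.09 (adjusted p = 6.9e-05). Both pass electrons from ubiquinol towards cytochrome c. The core proteins, related to mitochondrial processing peptidases, also fell: UQCRC1 by 0.35 ± 0.08 (adjusted p = 0.00192), with 135, 114 and 118 CPM with vehicle and 86.8, 99 and 101 CPM with panobinostat. UQCRC2 had 224, 247 and 244 CPM with vehicle and 174, 188 and 205 CPM with panobinostat and fell by 0.34 ± 0.08 (adjusted p = 0.00159). In all of these genes the arms are apart. The UQCRC1 call was lost with limma on FPKM, where the fall was 0.24 in each of 3 settings (adjusted p = 0.0505, 0.0642 and 0.0515).

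Of the small complex III subunits, 1 rose and 1 fell. UQCRH, the acidic hinge protein that contacts cytochrome c1, had 149, 131 and 139 CPM with vehicle and 165, 199 and 214 CPM with panobinostat and rose by 0.46 ± 0.09 (adjusted p = 0.000422), with every panobinostat library above the vehicle ones. Its near-identical copy UQCRHL ran near 1 CPM and did not pass (0.45 ± 0.33, adjusted p = 0.245), and reads of the copies may have been split between them. UQCR10, a small transmembrane subunit, had 171, 142 and 145 CPM with vehicle and 115, 121 and 133 CPM with panobinostat and fell by 0.31 ± 0.09 (adjusted p = 0.00515), a call lost with library size alone and with upper quartile scaling (-0.20 and -0.17, adjusted p = 0.0545 and 0.0894).

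The remaining complex III genes overlapped between arms. UQCRQ, which packs beside cytochrome b, had 118, 113 and 129 CPM with vehicle and 94.8, 139.8 and 149 CPM with panobinostat, and its change of 0.09 ± 0.13 (adjusted p = 0.537) became 0.27 without panobinostat library A (adjusted p = 0.00632). UQCRB, which also lies beside cytochrome b, had 129.9, 129 and 123 CPM with vehicle and 143, 114 and 112 CPM with panobinostat; panobinostat library A was here the highest of all 6. Its change of -0.05 ± 0.09 (adjusted p = 0.644) became -0.17 without that library (adjusted p = 0.0465). UQCR11, a small membrane subunit, had 70.2, 45.2 and 50.5 CPM with vehicle and 58.1, 72.6 and 59 CPM with panobinostat, with vehicle library A high. Its change of 0.20 ± 0.14 (adjusted p = 0.209) became 0.39 without vehicle library A (adjusted p = 0.00387) and 0.34 with upper quartile scaling (adjusted p = 0.0422).

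CYCS encodes cytochrome c, which carries electrons from complex III to complex IV and triggers apoptosis when released to the cytosol (ENSG00000172115, chr7:25120091-25125361, - strand, GRCh38). It had 132, 151 and 154 CPM with vehicle and 201, 213 and 213 CPM with panobinostat, and all panobinostat libraries lay above the vehicle ones. CYCS rose by 0.52 ± 0.08 (adjusted p = 2.74e-05), and by 0.45 to 0.66 over the alternatives run. It has 42 named pseudogenes, so some of its reads may be placed among copies.

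Complex IV was the complex with rises and no falls among 11 genes tested. Its 4 rises are 36.4% of them, near the 33.7% of all genes that rose, while 31.5% of all genes fell. COX6A1, the widely expressed form of subunit 6A (ENSG00000111775, chr12:120438090-120440742, + strand, GRCh38), had 88.7, 78.3 and 80.3 CPM with vehicle and 131, 144 and 149 CPM with panobinostat and rose by 0.78 ± 0.08 (adjusted p = 6.02e-07), the largest rise of any member. COX7A2L, a COX7A relative known for joining complexes III and IV in supercomplexes, had 145, 154 and 158 CPM with vehicle and 202, 222 and 219 CPM with panobinostat and rose by 0.49 ± 0.07 (adjusted p = 2.67e-05). The arms of both genes are far apart. COX8A, the widely expressed form of the smallest subunit, had 191, 182 and 184 CPM with vehicle and 192, 274 and 290.3 CPM with panobinostat and rose by 0.44 ± 0.12 (adjusted p = 0.00375). Panobinostat library A was barely above the vehicle range there, and without it the rise was 0.61. COX8A shares 34.5% and COX6A1 13.0% of their exon bases with a same-strand locus.

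COX7C, another small membrane subunit, had 149.8, 170.5 and 173 CPM with vehicle and 165, 211 and 228 CPM with panobinostat, with panobinostat library A inside the vehicle range. It rose by 0.29 ± 0.10 (adjusted p = 0.0226), and the call was lost when vehicle library A, panobinostat library B or panobinostat library C was left out (0.22, 0.26 and 0.20, adjusted p = 0.0838, 0.0802 and 0.125). COX6C, a membrane subunit, had 78.1, 115 and 116 CPM with vehicle and 91.9, 151 and 168 CPM with panobinostat and did not pass (0.41 ± 0.18, adjusted p = 0.0585). Library A was low in both arms for COX6C. Its change passed without panobinostat library A (0.62, adjusted p = 0.000604), without vehicle library C (0.49, adjusted p = 0.048), with library size alone (0.52, adjusted p = 0.0187) and with upper quartile scaling (0.55, adjusted p = 0.015).

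COX4I1, the regulatory subunit that meets the catalytic core, had 271, 285 and 299 CPM with vehicle and 254, 275 and 290.2 CPM with panobinostat; its arms overlap and it did not pass (-0.06 ± 0.08, adjusted p = 0.479). COX6B1, on the intermembrane side, had 122, 97.1 and 106 CPM with vehicle and 89.8, 101 and 102 CPM with panobinostat. Its change of -0.15 ± 0.09 (adjusted p = 0.143) became -0.23 without vehicle library B (adjusted p = 0.0439). The arms of COX6B1 overlap as well. COX7A2, the widely expressed subunit 7A, had 152, 139.9 and 147 CPM with vehicle and 146, 158 and 166 CPM with panobinostat, and its change of 0.10 ± 0.07 (adjusted p = 0.255) passed with library size alone and upper quartile scaling (0.21 and 0.24, adjusted p = 0.0195 and 0.0103). COX7B, a small membrane subunit, had 157, 136 and 135 CPM with vehicle and 143, 149 and 147 CPM with panobinostat and did not pass (0.04 ± 0.08, adjusted p = 0.677), nor did COX5A (0.02 ± 0.08, adjusted p = 0.862) or COX5B (-0.06 ± 0.09, adjusted p = 0.606).

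Tissue-restricted forms of complex IV subunits were scarce or had no row. COX4I2, the form known from lung and low oxygen, had 3, 3 and 4 counts in vehicle libraries A, B and C and 1, 1 and 0 in the panobinostat libraries, too few for a comparison, and was left out by the filter. The muscle forms COX6A2 and COX7A1 and the germ-cell forms COX6B2 and COX7B2 match the rule but were not analysed here, as they have no row. COX8C, outside the rule, was at 0 in every vehicle library. With panobinostat it had 17 counts in all (0.214, 0.355 and 0.429 CPM in libraries A, B and C), and it was not tested.

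In the ATP synthase the largest fall was not in the enzyme itself but in its inhibitor. ATP5IF1, the protein that blocks ATP hydrolysis by the synthase when the proton gradient fails (ENSG00000130770, chr1:28236109-28246906, + strand, GRCh38), had 112, 105 and 105 CPM with vehicle and 59.3, 57.6 and 61.9 CPM with panobinostat and fell by 0.85 ± 0.07 (adjusted p = 1.05e-07). The panobinostat libraries lay close together and all below the vehicle ones. ATP5MF, subunit f of the membrane sector, had 124, 95.1 and 104 CPM with vehicle and 64.7, 60.6 and 59.6 CPM with panobinostat and fell by 0.80 ± 0.09 (adjusted p = 2.63e-06). Its arms are apart, and 8.57% of its exon bases are shared with PTCD1 and a readthrough locus.

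The 4 rises were in genes of both stalks and of the c-ring. ATP5F1E and ATP5F1D encode the epsilon and delta subunits at the foot of the central stalk. ATP5F1E had 119, 122 and 135 CPM with vehicle and 156, 179 and 178 CPM with panobinostat and rose by 0.45 ± 0.08 (adjusted p = 0.000147). ATP5F1D had 49.2, 36.4 and 44.1 CPM with vehicle and 56.4, 59.7 and 53.2 CPM with panobinostat and rose by 0.39 ± 0.10 (adjusted p = 0.00365). ATP5PD, subunit d of the peripheral stalk, had 133, 159 and 156 CPM with vehicle and 170.4, 209.7 and 219.9 CPM with panobinostat and rose by 0.42 ± 0.10 (adjusted p = 0.00146). In all 3 the panobinostat libraries lay above every vehicle library.

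Neither main subunit of the catalytic head passed. ATP5F1B, the catalytic beta subunit, had 1358, 1298 and 1356 CPM with vehicle and 1009.8, 1234 and 1288 CPM with panobinostat. With TMM scaling every panobinostat library was below every vehicle library. In FPKM, which is scaled by library total, the arms overlap, with panobinostat library C above every vehicle library. ATP5F1B did not pass (-0.18 ± 0.09, adjusted p = 0.0804), and it did without panobinostat library C (-0.25, adjusted p = 0.0357). ATP5F1A, the alpha subunit, had 739, 815 and 806 CPM with vehicle and 682, 824 and 851 CPM with panobinostat, with means of 787 ± 41.4 and 786 ± 90.7 CPM (SD, n = 3) and overlapping arms (adjusted p = 0.99). ATP5MPL, a small membrane-sector protein, had 90.7, 93.8 and 101 CPM with vehicle and 87.8, 103 and 109 CPM with panobinostat, and its change of 0.07 ± 0.09 (adjusted p = 0.486) passed with upper quartile scaling (0.21, adjusted p = 0.0436). The other subunits that did not pass, ATP5MD, ATP5PB, ATP5PO, ATP5F1C, ATP5ME, ATP5MG and ATP5PF, had log2 changes between -0.17 (ATP5MD) and 0. ATP5MGL, a relative of subunit g, had 2, 0 and 2 counts with vehicle and 0, 1 and 7 with panobinostat and was left out by the filter.

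The c-ring, the rotor that protons turn, is made from 3 genes whose mature proteins are identical and whose import sequences differ. Their calls differed, and the difference between the genes was not tested. ATP5MC1 had 152, 122 and 129 CPM with vehicle and 97.7, 111 and 117 CPM with panobinostat and fell by 0.31 ± 0.09 (adjusted p = 0.00928), a call lost with library size alone and with upper quartile scaling (-0.19 and -0.17, adjusted p = 0.0815 and 0.127). The ATP5MC1 call was also lost with limma on FPKM in each of 3 settings (-0.19, adjusted p = 0.151 to 0.182). ATP5MC2 had 182, 198 and 213 CPM with vehicle and 138, 188 and 192 CPM with panobinostat, overlapped between arms and did not pass (-0.19 ± 0.11, adjusted p = 0.127). ATP5MC3 had 129, 120.1 and 142 CPM with vehicle and 164, 178 and 189 CPM with panobinostat and rose by 0.44 ± 0.08 (adjusted p = 0.000242), with every panobinostat library above the vehicle ones. ATP5MC1 has 8 named pseudogenes and ATP5MC2 has 5.

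Compared per length in FPKM, which the authors scaled by library total and not by TMM, ATP5MC1 stood at 49.4 ± 6.39 and 43 ± 3.57 FPKM with vehicle and panobinostat (mean ± SD, n = 3). The values were 47.5 ± 3.41 and 44.8 ± 7.62 FPKM for ATP5MC2 and 18.5 ± 1.59 and 27.1 ± 1.66 FPKM for ATP5MC3. ATP5MC3 thus remained the lowest of the 3 in every library. COX7A2 (73.2 ± 3.57 and 84.5 ± 4.66 FPKM) stayed above COX7A2L (26.1 ± 0.941 and 39.7 ± 1.91 FPKM). NDUFA4 stood at 40.3 ± 6.31 and 50.3 ± 6.02 FPKM against 1.32 and 1.30 FPKM for NDUFA4L2, and COX4I1 at 57.1 and 59.1 FPKM against 0.288 and 0.0655 FPKM for COX4I2.

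**Figure D3:**
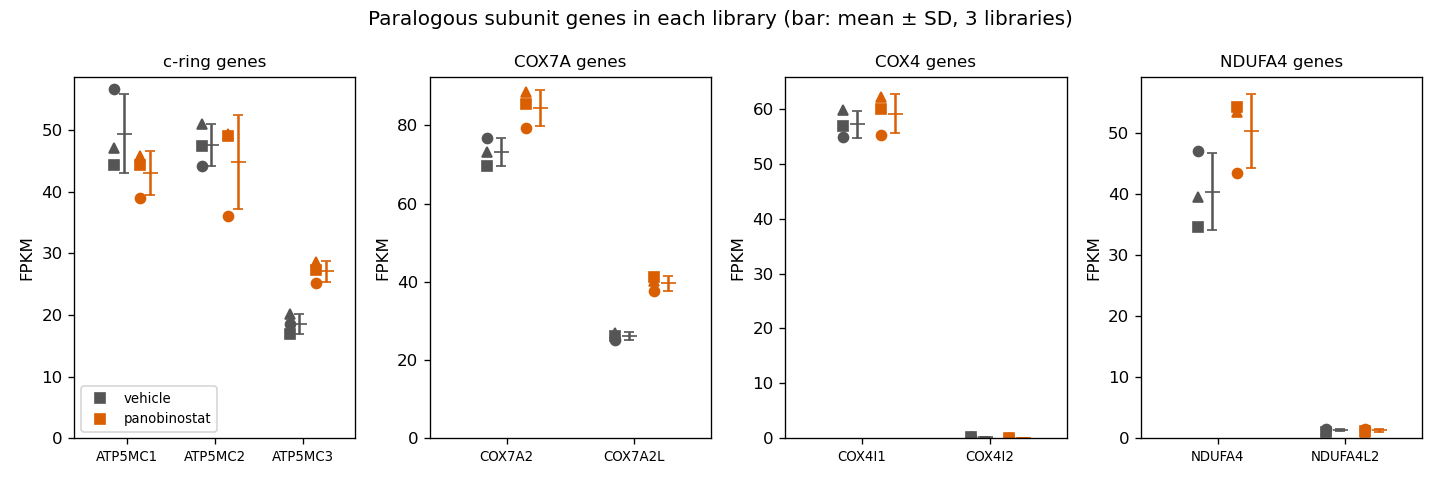
FPKM of paralogous subunit genes in each library (marker shape: circle A, square B, triangle C; grey: vehicle; orange: panobinostat; horizontal line and bar: mean and SD of 3 libraries). ATP5MC3 and COX7A2L lie higher in every panobinostat library than in any vehicle library while staying below their relatives, and COX4I2 and NDUFA4L2 lie near 0.

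Levels per length differed widely within a complex. With vehicle, mean FPKM ran from 1.32 (NDUFA4L2) to 287 (NDUFS5) in complex I, from 2.91 (SDHC) to 43.2 (SDHB) in complex II, from 0.584 (UQCRHL) to 150.4 (UQCR10) in complex III, from 0.288 (COX4I2) to 352 (COX8A) in complex IV and from 0.104 (ATP5MGL) to 553 (ATP5F1B) in complex V. Summed over its members, complex I stood at 1521, 1557 and 1647 FPKM in the vehicle libraries and 1254, 1451 and 1540 FPKM in the panobinostat libraries, and the arms overlap. Complex IV summed to 1057, 981 and 1021 FPKM and 1113, 1401 and 1426 FPKM, and the arms do not overlap. COX8A makes up much of that sum; without it the sums were 691, 637 and 674 FPKM and 717, 836 and 838 FPKM. Complex V summed to 1382, 1304 and 1371 FPKM and 1204, 1400 and 1424 FPKM. These sums compare levels and were not tested.

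**Figure D4:**
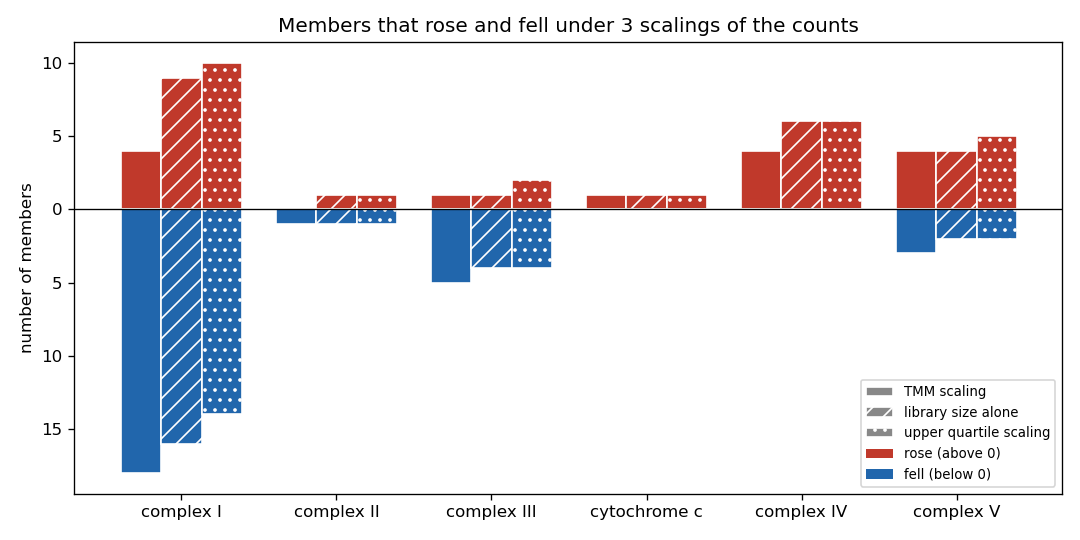
Number of tested members that rose (upward bars) and fell (downward bars) in each complex with TMM scaling, library size alone and upper quartile scaling. Complex I goes from 4 rises and 18 falls with TMM to 10 rises and 14 falls with upper quartile scaling, and complex IV has 0 falls with each of the 3. Of all genes tested, 33.7%, 39.4% and 40.8% rose and 31.5%, 25.2% and 23.8% fell with TMM, library size alone and upper quartile scaling.

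Genes that build or regulate the chain were read off the same fit. Of 53 assembly factor genes tested, 27 fell and 8 rose, with a median log2 change of -0.23, so 66.0% were called beside 65.2% of all genes. Of all genes 31.5% fell and 33.7% rose. Without panobinostat library A, 24 of the assembly factors fell and 11 rose. With upper quartile scaling 21 fell and 16 rose (all genes: 23.8% and 40.8%), and with library size alone 24 fell and 15 rose (25.2% and 39.4%). NDUFAF6, a complex I assembly factor, had 27.1, 33.2 and 29.9 CPM with vehicle and 9.85, 10.5 and 13 CPM with panobinostat and fell by 1.43 ± 0.12 (adjusted p = 1.04e-07). BCS1L, which inserts the Rieske protein UQCRFS1 into complex III, had 52.2, 48.7 and 48.9 CPM with vehicle and 23.1, 26.3 and 25.7 CPM with panobinostat and fell by 0.99 ± 0.09 (adjusted p = 1.26e-07). ATPAF1, a chaperone of the ATP synthase head, had 91.8, 85.4 and 83.3 CPM with vehicle and 42.9, 47.9 and 45.6 CPM with panobinostat and fell by 0.93 ± 0.08 (adjusted p = 9.15e-08). The arms of all 3 do not overlap.

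Rises among assembly factors were smaller. SURF1, an assembly factor of complex IV, had 28.9, 34.2 and 31.4 CPM with vehicle and 38.82, 45.8 and 46.3 CPM with panobinostat and rose by 0.47 ± 0.10 (adjusted p = 0.000539). SDHAF3, of complex II, had 25.2, 30.4 and 23.7 CPM with vehicle and 36.5, 36.3 and 34.4 CPM with panobinostat and rose by 0.43 ± 0.10 (adjusted p = 0.00149). TIMMDC1, of the complex I membrane arm, had 54.2, 59 and 53.5 CPM with vehicle and 67.2, 75.4 and 79.2 CPM with panobinostat and rose by 0.41 ± 0.08 (adjusted p = 0.00047). Panobinostat libraries all lay above vehicle libraries for the 3 genes.

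Of 18 transcription and biogenesis regulators, 6 fell and 5 rose, with a median of -0.12, and the counts were the same without panobinostat library A. The called share, 61.1%, was near that of all genes, 65.2%. NRF1 had 37.6, 36.7 and 34.9 CPM with vehicle and 21.9, 23.8 and 24 CPM with panobinostat and fell by 0.64 ± 0.09 (adjusted p = 1.15e-05). GABPA, the DNA-binding subunit of GABP, had 51.5, 57.1 and 55.3 CPM with vehicle and 44, 41.1 and 38.2 CPM with panobinostat and fell by 0.41 ± 0.08 (adjusted p = 0.000485), and its partner GABPB1 had 82.4, 90.0 and 83.6 CPM with vehicle and 56.7, 54.4 and 53.6 CPM with panobinostat and fell by 0.64 ± 0.07 (adjusted p = 2.68e-06). In the PGC-1 family the calls went both ways. PPRC1, a coactivator, had 86.7, 63.5 and 67.4 CPM with vehicle and 28.9, 26.3 and 22.7 CPM with panobinostat and fell by 1.48 ± 0.12 (adjusted p = 6.45e-08). The other 2 genes of that family rose. PPARGC1A had 20.3, 19.6 and 18.1 CPM with vehicle and 39.1, 32.6 and 32.2 CPM with panobinostat and rose by 0.84 ± 0.10 (adjusted p = 3.98e-06), and PPARGC1B had 4.76, 3.39 and 4.51 CPM with vehicle and 8.64, 8.46 and 7.45 CPM with panobinostat and rose by 0.96 ± 0.16 (adjusted p = 0.000116). ESRRA, the receptor they act with, had 23.5, 20.3 and 23.9 CPM with vehicle and 29.5, 39.8 and 38.2 CPM with panobinostat and rose by 0.67 ± 0.12 (adjusted p = 0.000121). TFAM, which packs mitochondrial DNA and helps start its transcription, had 169, 202 and 195 CPM with vehicle and 204, 206 and 211 CPM with panobinostat. It did not pass (0.13 ± 0.08, adjusted p = 0.148). The arms do not overlap for the regulators named here.

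**Figure D5:**
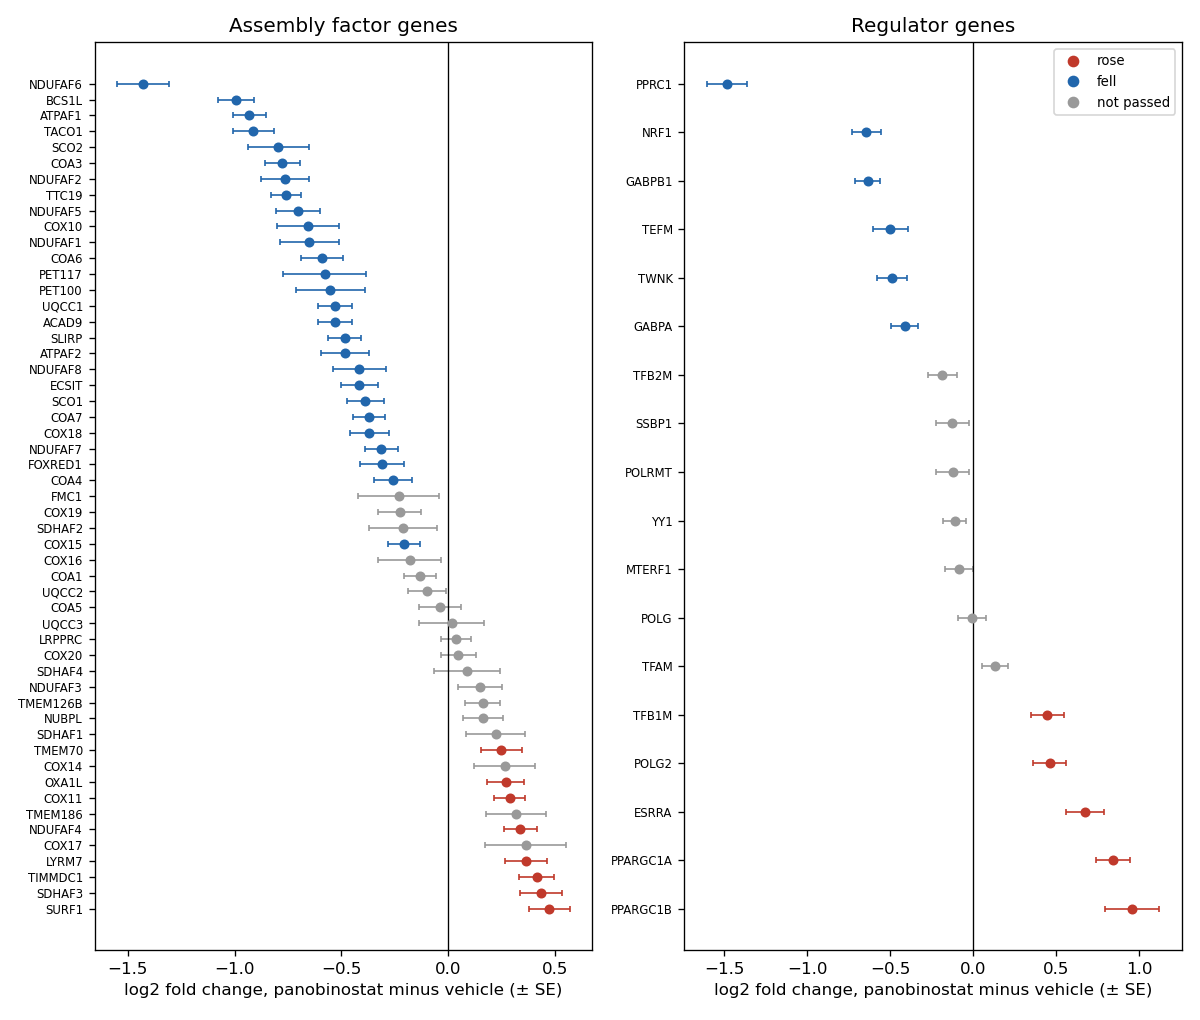
Log2 fold change (points, panobinostat minus vehicle) with its SE (bars) of the tested assembly factor genes (left) and regulator genes (right), coloured by call. Assembly factors run from -1.43 (NDUFAF6) to 0.47 (SURF1), and the PGC-1 family spans -1.48 (PPRC1) to 0.96 (PPARGC1B).

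Among 12 genes of other routes that feed electrons to ubiquinone or that make it, 2 rose and 2 fell, with a median of 0.05, so 33.3% were called beside 65.2% of all genes. ETFDH, which delivers electrons from fatty acid and amino acid oxidation, had 27.9, 29 and 29.5 CPM with vehicle and 35.6, 38.4 and 37.1 CPM with panobinostat and rose by 0.36 ± 0.08 (adjusted p = 0.00127). COQ5, a methyltransferase of ubiquinone synthesis, had 14, 17.3 and 15.4 CPM with vehicle and 18.6, 20.5 and 18.9 CPM with panobinostat and rose by 0.31 ± 0.11 (adjusted p = 0.0197). COQ4, of the same synthesis, had 40.0, 40.0 and 37.3 CPM with vehicle and 25.1, 29.4 and 32.9 CPM with panobinostat and fell by 0.42 ± 0.10 (adjusted p = 0.00186), and DHODH, which makes pyrimidines and reduces ubiquinone, had 18, 21.2 and 23.3 CPM with vehicle and 15.4, 16 and 18.7 CPM with panobinostat and fell by 0.32 ± 0.12 (adjusted p = 0.0271). The arms overlap for DHODH but not for ETFDH, COQ5 or COQ4. Without panobinostat library A, 4 of the 12 genes rose and 2 fell. With upper quartile scaling (all genes: 40.8% rose and 23.8% fell) or library size alone (39.4% and 25.2%), 4 rose and 1 fell.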

How the data were processed

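RNA of 3 vehicle and 3 panobinostat libraries was sequenced, and groups and letters come from the labels. Per the file headers, featureCounts 1.5.0-p3 gave the deposited counts per gene, assigning reads by strand (option 2) to the Ensembl release 84 gene of largest overlap. The submitters' processing notes name featureCounts 1.5.1, Novoalign 2.8, Subread and hg38. Of 9 alignment files in the header, the 6 with columns were used. How rows were chosen is not stated in those sources. The deposited FPKM values are the authors' own: all 64991 with at least 100 counts lay within 1% of count divided by length and total, so both files hold 1 measurement.

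Symbols and GRCh38 coordinates came from GENCODE 29 (22459 of 22718 identifiers matched), and promoters from RefSeq. The fit used edgeR 4.0.16 (R 4.3.3): filterByExpr (minimum count 10, total 15), TMM, the quasi-likelihood test between arms over all 16084 genes kept, and Benjamini-Hochberg adjustment, called at 0.05. The SE is the log2 fold change divided by the square root of F. Counts of 3, taken as the floor, equal 0.161 to 0.216 CPM (TMM-scaled) and cover counting error only. The edgeR steps were tested on simulated data with few genes changed, as many up as down. That cannot show whether the scaling suits these data, where 65.2% of genes tested were called. Alternatives were DESeq2 1.42.0, other size factors and filters, a stricter adjusted p (0.01), a block on the letter, each library left out, and limma 3.58.1 on log2(FPKM + 1) and log2(FPKM + 0.1). Further ones, with ATP5S counted in complex V or with NDUFA4 and NDUFA4L2 counted in complex IV, were added after seeing the data.

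Members, companion lists and the rule for named genes were chosen with earlier results of these data known. Values in every library are printed for up to 4 falls and 4 rises a complex (mean of 1 CPM or more), paralogs, core catalytic subunits and members whose call depends on 1 library or the scaling. Of the companion lists, up to 3 passing genes a direction and PPARGC1A, NRF1, GABPA, TFAM and ESRRA are named. ATP5S (now DMAC2L) was left out as an assembly component (-0.10 ± 0.08, adjusted p = 0.268 with edgeR). Among the members, 24 share exon bases with a same-strand gene and 50 have named pseudogenes. Counts and means include 1 complex I member that is not reported here on its own. Correlations of same-letter deviations between arms were 0.08, -0.02 and 0.10, so the letters were not taken to pair libraries.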

Additional observations from a re-analysis of the deposited data

How the results depend on the processing

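No called member reversed under any alternative run. With library size alone, members that rose numbered 22, complex I rises 9, complex II rises 1, assembly factor rises 15, and electron carrier rises and falls 4 and 1 (all genes: 39.4% rose and 25.2% fell). With upper quartile scaling the same counts were 25, 10, 1, 16, 4 and 1 (all genes: 40.8% rose and 23.8% fell), complex III rises numbered 2, and the member median was 0.078. Both scalings shift every gene alike. With no filter, 5 complex V members fell (ATP5F1B and ATP5MD passed too). Limma on FPKM called 3 complex III falls in each of its 3 settings (UQCR10 and UQCRC1 did not pass) and 1 electron carrier fall in each. It called 13 assembly factor rises with the filter at either pseudocount. The cause of these differences was not tested. On log2(FPKM + 1) without a filter it also called 1 complex IV fall. That fall was in none of the 11 members tested with edgeR but in COX4I2, at 3, 3 and 4 counts with vehicle and 1, 1 and 0 with panobinostat. At an adjusted p of 0.01, 1 electron carrier gene rose and 1 fell, the threshold alone having changed.

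Leaving out each library in turn gave 12 to 20 member rises, 27 to 29 member falls, 3 to 8 complex I rises, 1 to 2 complex III rises, 0 to 1 complex IV falls, and 1 to 4 rises and 1 to 3 falls among electron carriers. With the letter as a replicate block, 16 members rose and 28 fell; NDUFB6, COX6C and ATP5MC2 passed in addition, and the labels share only letters. Sign changes occurred in 21 members, none of them called. The SE was wide for UQCRHL, near 1 CPM: its 0.45 ± 0.33 did not pass, while 0.46 ± 0.09 for UQCRH did.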
